A study of Homo sapiens with 16 samples.

Results

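Heparan sulfate synthesis is represented here by 10 genes, namely EXT1, EXT2, EXTL1, EXTL2, EXTL3, NDST1, NDST2, HS2ST1, HS6ST1 and HS3ST3B1, out of 19970 protein-coding genes on chromosomes 1 to 22 and X. The data are 2 lists of genomic regions where acetylation of histone H3 at lysine 27 (H3K27ac), a mark of active promoters and enhancers, differed between arms in LX-2, an immortalised line of human hepatic stellate cells that behaves like myofibroblastic stellate cells (MF-HSC) in culture, so that 1 cell line stands for the cell type. The cells had received OSMI-1, an inhibitor of O-GlcNAc transferase (OGTi), at 50 µM for 24 h, or its vehicle DMSO for the same time, with 4 H3K27ac libraries in each arm. One list holds 3623 regions gained with OGTi and the other 3507 regions lost with it. A region was attributed to a gene when at least 1 base lay in the gene body or within 100 kb of the annotated 5′ end, on either side. This gave 14 gained and 8 lost regions, 22 of the 7130 listed. The genes were chosen by their function and by the many gained regions already seen in EXT1, so the counts for EXT1 are given as a description and no test was made on any count. The lists hold positions alone, with no signal, fold change, p-value or value per library, so the size of each change, its spread over the replicates and the sequencing depth are unknown here. A listed region passed the authors' test across the 8 libraries. The list names give an adjusted p of 0.15, a lenient cut-off, and the methods text a stricter one. A gene with no listed region was not shown to be unchanged.

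Heparan sulfate is a long sugar chain carried by core proteins at the cell surface and in the matrix, where it binds growth factors, morphogens, chemokines and matrix proteins. Its chain is started on a short linker, elongated in the Golgi by the EXT1 and EXT2 glycosyltransferases acting as a complex, and then modified by sulfotransferases that create the protein binding sites. In the liver, heparan sulfate lines the space between the sinusoids and the hepatocytes, the space in which hepatic stellate cells reside.

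Sequences are shown for chosen regions at NDST1, HS6ST1, NDST2 and EXT2, as examples of the motif matches and the base composition described further on. They were read from the hg38 reference and are written 5′ to 3′ on the plus strand. Capitals mark matches, on either strand, to the consensus of TEAD factors (CATTCC with A or G before it and A or T after it), AP-1 (TGA, then C or G, then TCA), ATF4 with C/EBP (TGATGCAA), RUNX factors (TGTGGT), SRF, the GC box (GGGCGG) or the E-box (CACGTG). Each stretch is the 300 bases of its region, outside annotated exons, that hold the most matches, and the EXT2 matches are given with 10 bases on each side. Stretches are shown for both NDST1 regions, 1 of the 3 HS6ST1 regions and 1 of the 2 NDST2 regions. For HS6ST1 and NDST2 the stretch shown is the one with the most matches for its gene. The first pair lies upstream of NDST1, the first stretch with 1 TEAD and 1 SRF match and the second with 1 AP-1 and 1 TEAD match.
NDST1 distal lost region, chr5:150468162-150468461, plus strand: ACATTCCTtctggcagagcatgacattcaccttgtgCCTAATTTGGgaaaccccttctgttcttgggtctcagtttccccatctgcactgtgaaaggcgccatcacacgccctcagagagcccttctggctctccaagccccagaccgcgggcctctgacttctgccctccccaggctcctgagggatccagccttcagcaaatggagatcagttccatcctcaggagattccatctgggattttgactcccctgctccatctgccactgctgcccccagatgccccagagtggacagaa
NDST1 proximal lost region, chr5:150472981-150473280, plus strand: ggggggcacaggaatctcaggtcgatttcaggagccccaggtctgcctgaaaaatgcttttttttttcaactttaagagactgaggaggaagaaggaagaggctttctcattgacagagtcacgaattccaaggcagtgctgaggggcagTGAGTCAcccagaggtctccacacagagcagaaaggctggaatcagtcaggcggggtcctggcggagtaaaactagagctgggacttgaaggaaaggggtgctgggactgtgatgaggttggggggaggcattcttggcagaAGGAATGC
The HS6ST1 stretch, with a RUNX and a GC box match, comes from the most upstream of its 3 lost regions, and the NDST2 stretch, with a pair of GC box matches, from a gained region with many CpG dinucleotides.
HS6ST1 lost region, chr2:128374584-128374883, plus strand: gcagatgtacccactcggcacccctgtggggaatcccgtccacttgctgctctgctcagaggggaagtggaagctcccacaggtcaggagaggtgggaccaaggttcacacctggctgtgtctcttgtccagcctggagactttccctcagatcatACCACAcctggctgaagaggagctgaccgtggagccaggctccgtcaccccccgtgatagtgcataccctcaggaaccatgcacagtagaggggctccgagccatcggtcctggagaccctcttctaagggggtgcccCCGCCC
NDST2 gained region, chr10:73785306-73785605, plus strand: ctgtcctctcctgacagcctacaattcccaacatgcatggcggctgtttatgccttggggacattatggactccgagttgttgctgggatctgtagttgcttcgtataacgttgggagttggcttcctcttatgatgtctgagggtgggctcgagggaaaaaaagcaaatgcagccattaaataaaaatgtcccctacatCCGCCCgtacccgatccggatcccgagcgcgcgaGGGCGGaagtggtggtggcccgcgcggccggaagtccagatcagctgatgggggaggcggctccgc
The 3 EXT2 sites, AP-1, TEAD and AP-1 in this order, lie in the wider of its 2 lost regions. Unlike the stretches above, they lie in an annotated exon, in the 3′ untranslated region. They are 867 to 1140 bp from the region's centre, outside the central 1000 bp used for the motif counts further on.
EXT2 AP-1, match at chr11:44244848-44244854, plus strand: caccagccgcTGAGTCAggatcctgtc
EXT2 TEAD, match at chr11:44245054-44245061, plus strand: acacgccaggAGGAATGTctgataccct
EXT2 AP-1, match at chr11:44245121-44245127, plus strand: taagaacagaTGACTCAgaaacctcca

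Regions were unevenly shared among the 10 genes. EXT1 held 12 of the 14 gained regions (85.7%) and 1 of the 8 lost regions, and NDST2 held the other 2 gained regions. The remaining 7 lost regions lay at HS6ST1 (3), EXT2 (2) and NDST1 (2). No listed region was found at EXTL1, EXTL2, EXTL3, HS2ST1 or HS3ST3B1. At least 1 gained region was thus present at 2 of the 10 genes, where 30.6% of all protein-coding genes had one by the same rule. At least 1 lost region was present at 4 of the 10 genes, against 21.6% of protein-coding genes. With 10 genes, these shares were not tested and say nothing particular about the set. The median number of listed regions per gene was 1 for the 10 genes and 0 for all protein-coding genes.

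**Figure D1:**
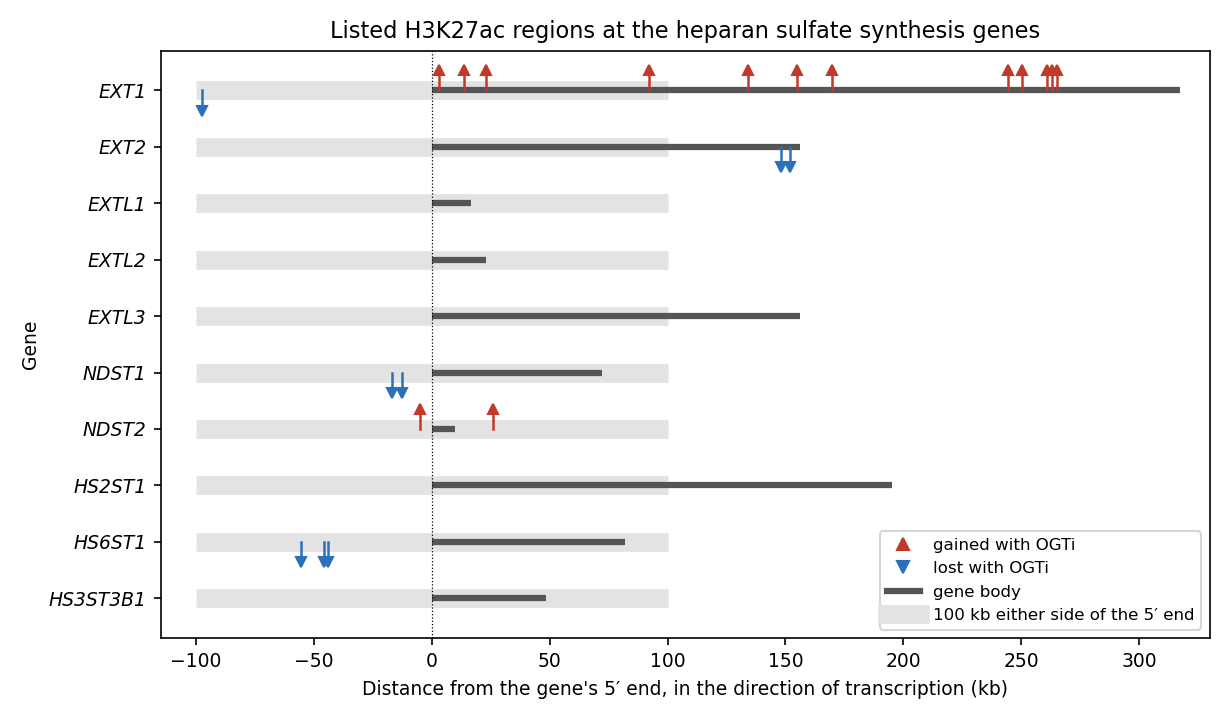
Position of the 14 gained (upward red triangles) and 8 lost (downward blue triangles) H3K27ac regions along each gene. The x axis gives the distance of the region's centre from the gene's 5′ end in kb, positive in the direction of transcription; dark lines are gene bodies and pale bands the 100 kb on either side of the 5′ end. The 12 gained regions of EXT1 run through its gene body, and 6 of the 8 lost regions lie upstream of a 5′ end.

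The position of the regions relative to the genes is given for each direction. EXT1 was chosen for its gained regions and held all of those found in a gene body here. No contrast between directions is therefore drawn. All 12 gained regions of EXT1 lay inside its gene body, and the 2 of NDST2 lay in the flanks. Among lost regions, 2 lay inside a gene body, that of EXT2, and 6 lay upstream of the 5′ end of EXT1, NDST1 or HS6ST1. Over all protein-coding genes, 10.9% had a gained region and 6.63% a lost region in the gene body. Only 1 of the 22 regions, a gained region of EXT1, came within 2500 bp of the 5′ end of the gene it was attributed to. Such a region at the 5′ end was found for 6.41% of protein-coding genes in the gained list and 1.96% in the lost list. EXT1 was therefore the only gene of the 10 with a listed region this close to the annotated 5′ end used here.

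EXT1 encodes the catalytic polymerase subunit that, together with EXT2, adds alternating glucuronic acid and N-acetylglucosamine to the growing chain. The gene (ENSG00000182197.13) occupies chr8:117794490-118111826 on the minus strand of hg38, a length of 317 kb. The centres of its 12 gained regions lay 2.939, 13.793, 22.964, 92.326, 133.989, 154.907, 169.928, 244.343, 250.161, 260.842, 263.149 and 265.021 kb downstream of the 5′ end. All 12 centres fell in intron 1, which spans 273 kb or 86.0% of the gene, and none fell in introns 2 to 10. The region nearest to the start, chr8:118107637-118110137, began 1689 bp inside the gene, overlapped the last 53 bp of exon 1 and ended 4189 bp from the 5′ end. The 11 other regions overlapped no exon of any annotated EXT1 transcript. The 5′ end itself was not covered by a listed region.

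The 12 regions of EXT1 formed 4 groups when those separated by at most 20 kb were joined. The first group held 3 regions between 1.689 and 23.063 kb from the 5′ end. The second was an isolated region at 92.326 kb. The third held 3 regions over 37.5 kb, from 132.928 to 170.465 kb. The fourth held 5 regions over 21.7 kb, from 244.217 to 265.892 kb, of which the last 3 abutted and formed an unbroken stretch. The widest interval without a listed region inside this series of 12 measured 73.8 kb, and the last 51.4 kb of the gene, beyond the fourth group, had none. Of the 12 regions, 6 lay on either side of the midpoint of the gene.

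Widths within EXT1 ranged from 200 to 2614 bp, with a median of 2000 bp, and 2 regions (200 and 252 bp) were below 500 bp. Together they covered 19.3 kb, or 6.08% of the gene. Joining the 3 abutting regions left 10 separate blocks, so the 12 regions are not 12 independent elements.

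Few genes had as many gained regions as EXT1. Of the 19970 protein-coding genes, 5 had at least 12 gained regions in the gene body, EXT1 included. The genes most like EXT1, defined by at least 10 gained and 0 lost regions in the gene body, were VEPH1 (16 regions), ADAMTS12 (15), DST (13), PDGFC (12) and BCL2L1 (11). Per 100 kb of gene, EXT1 had 3.78 gained regions, which placed it below BCL2L1 (18.5), VEPH1 (5.84), PDGFC (5.68) and ADAMTS12 (4.07) and above DST (2.62). These genes differed in where the regions lay. The median position was 51.2% of the way along EXT1 and 44.7% along DST, 11.7% along PDGFC, 17.3% along ADAMTS12, 32% along BCL2L1 and 68.0% along VEPH1. Long genes offer more room for a region. Among the 823 protein-coding genes of at least 300 kb, 210 (25.5%) had a gained region in the body, 177 (21.5%) a lost one and 505 (61.4%) neither. The 210 long genes with a gained region had a median of 1, against 12 in EXT1. Since EXT1 was chosen for its many gained regions, this gap is a description.

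**Figure D2:**
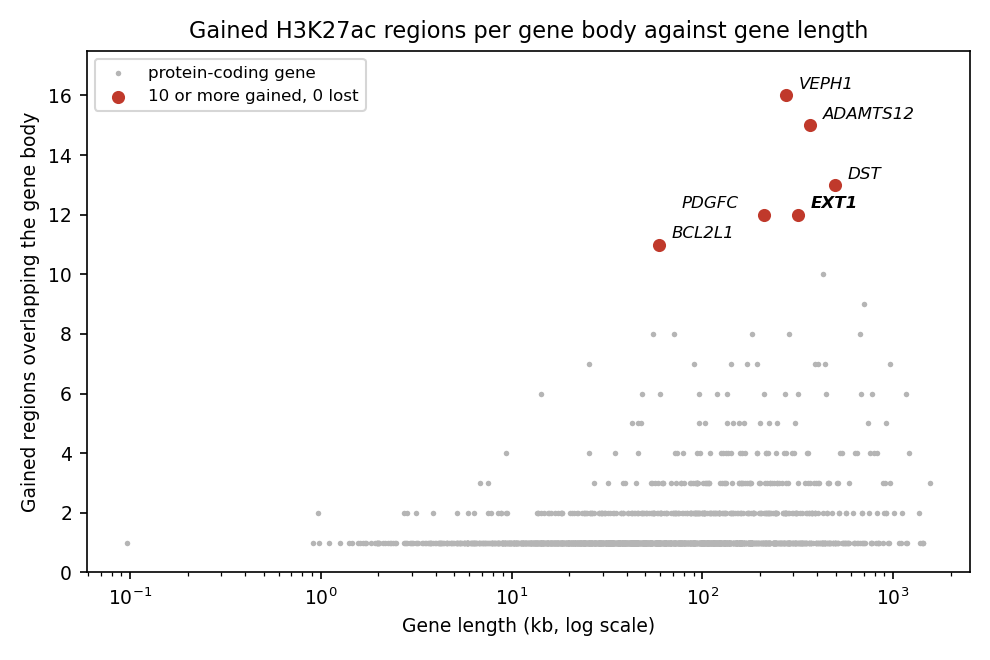
Number of gained H3K27ac regions overlapping the body of each of the 2185 protein-coding genes with at least 1 (y axis), against gene length in kb (x axis, log scale). EXT1 and the 5 other genes with at least 10 gained and 0 lost regions are in red. EXT1, chosen for its many gained regions, has 12 in 317 kb, and the median long gene with a gained region has 1.

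Listed regions on the 2 sides of the EXT1 start differed in direction, with none between the start and 96.9 kb upstream. Within 1 Mb downstream of the 5′ end there were 13 gained and 0 lost regions, the 12 in EXT1 and 1 more at 590.88 kb whose nearest protein-coding 5′ end was that of MED30, a Mediator subunit gene. Within 1 Mb upstream there were 12 lost and 0 gained regions. The nearest of these 12, chr8:118208759-118210294, was the 1 attributed to EXT1, with its centre 97.7 kb upstream, inside the neighbouring gene SAMD12. For this region the 5′ end of EXT1 was still the nearest of any protein-coding gene. The other 11 lay 361 to 798 kb upstream, with the 5′ end of SAMD12 nearest for 5 and that of TNFRSF11B, which encodes osteoprotegerin, nearest for 6. MED30, SAMD12 and TNFRSF11B are named because they flank EXT1, after the positions had been seen. A split was defined, also after seeing the data, as at least 10 regions of one direction alone on one side. The other side had to hold at least 10 of the other direction alone. EXT1 was the only 1 of the 19970 genes to meet this definition. The cut-off was drawn from the counts at EXT1, a gene chosen for its gained regions, so this does not measure how unusual the split is. A median protein-coding gene had 3 gained and 2 lost regions within 1 Mb.

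**Figure D3:**
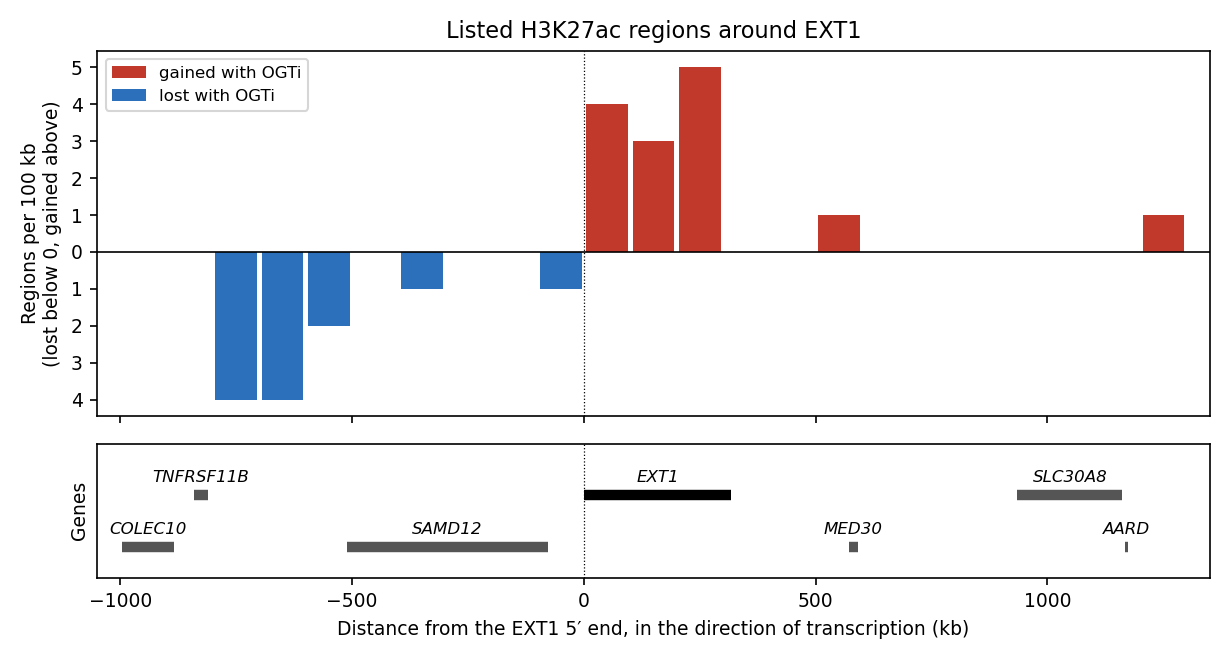
Number of gained (red, above 0) and lost (blue, below 0) H3K27ac regions per 100 kb bin around EXT1, against the distance from its 5′ end in kb, positive in the direction of transcription; the lower panel shows the protein-coding genes. Within 1 Mb, all 12 upstream regions are lost and all 13 downstream regions are gained.

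EXT2 encodes the second subunit of the polymerase, needed for full activity and for transport of the complex to the Golgi. The gene (ENSG00000151348.16) lies at chr11:44095648-44251962 on the plus strand and spans 156 kb. It had no gained region and 2 lost regions, both close to its 3′ end. The first, chr11:44242542-44245421, was 2880 bp wide, was centred 148 kb from the 5′ end and covered 1273 bp of the 3′ untranslated region in exon 14, the last exon. The second, chr11:44247455-44247759, was 305 bp wide, was centred 152 kb from the 5′ end and lay wholly in this untranslated region. Their centres stood at 94.9% and 97.2% of the gene length. The nearest protein-coding 5′ end to both was that of ALX4, which encodes a homeodomain transcription factor, at 66.2 and 62.5 kb, and not that of EXT2. Within 1 Mb of the EXT2 start, 10 regions were lost and 0 gained downstream, and 3 were gained and 0 lost upstream. Within its gene body EXT1, chosen for its gained regions, had 12 gained and 0 lost regions, and EXT2 had 0 gained and 2 lost. A gained region lay in the body of 10.9% of all protein-coding genes and a lost region in that of 6.63%. The difference between the 2 polymerase genes was not tested. With the 100 kb flanks included, EXT1 also had 1 lost region, so that both genes then had lost regions.

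The 3 EXT-like genes held no listed region. EXTL3 encodes the enzyme that adds the first N-acetylglucosamine to the linker, EXTL2 an enzyme that can stop the chain on a phosphorylated linker, and EXTL1 a transferase able to elongate it. For EXTL1, the nearest gained region began 102 kb downstream of the 5′ end, just outside the window, and its nearest protein-coding 5′ end was that of PDIK1L. The lost region at EXT1, which ended 96.9 kb from the 5′ end, was the one just inside the window. The nearest gained region was 297 kb away for EXTL2 and 289 kb for EXTL3, and the nearest lost region 355, 1428 and 983 kb away for EXTL1, EXTL2 and EXTL3.

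Among the sulfotransferases, NDST1 encodes the main enzyme that replaces the acetyl group of N-acetylglucosamine by sulfate, the step on which later sulfation depends. NDST1 (ENSG00000070614.15) lies at chr5:150485818-150558211 on the plus strand. It had 2 lost regions, both upstream and outside any annotated gene, at chr5:150467874-150469865 (1992 bp) and chr5:150472235-150473759 (1525 bp). Their centres lay 16.9 and 12.8 kb before the 5′ end, and NDST1 was the gene with the nearest protein-coding start for both. RefSeq places an NDST1 start 12.0 kb further downstream, so the distance depends on which promoter is used. Within 1 Mb of its start there were 8 lost regions and 1 gained region upstream, and 3 lost and 2 gained regions downstream.

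HS6ST1 encodes the enzyme that adds sulfate at the 6-O position of glucosamine. The gene (ENSG00000136720.7) lies at chr2:128236716-128318868 on the minus strand. Its 3 lost regions were chr2:128361692-128363711 (2020 bp), chr2:128363712-128365325 (1614 bp) and chr2:128373606-128374961 (1356 bp). The first 2 abutted, so that they formed 2 separate blocks with the third, 43.8 to 55.4 kb before the 5′ end. No other gene was annotated over them, and HS6ST1 had the nearest protein-coding 5′ end for all 3. Within 1 Mb there were 3 lost and 0 gained regions upstream, and 4 lost and 3 gained regions downstream. By the 100 kb rule, 516 of 19970 protein-coding genes (2.58%) had at least 3 lost and 0 gained regions.

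NDST2 encodes a second N-deacetylase/N-sulfotransferase. The gene (ENSG00000166507.19) lies at chr10:73801911-73811798 on the minus strand and is the shortest of the 10 at 9.89 kb. Its 2 gained regions lay on opposite sides. The upstream one, chr10:73815590-73817945 (2356 bp), was centred 4.97 kb before the 5′ end, inside the neighbouring gene CAMK2G and within 2500 bp of the start of the antisense gene CAMK2G-AS1. The downstream one, chr10:73785301-73786185 (885 bp), was centred 26.1 kb past the NDST2 start, beyond its 3′ end, and 0.137 kb from the 5′ end of ZSWIM8. Attributing this region to NDST2 thus rests on the window alone. No lost region lay within 1 Mb of NDST2.

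HS2ST1, which encodes the enzyme for 2-O sulfation of uronic acids, and HS3ST3B1, which encodes one of the 3-O-sulfotransferases, held no listed region. HS2ST1 is the second longest of the 10 genes at 195 kb and had 0 gained regions and 1 lost region within 1 Mb of its start. HS3ST3B1 had 1 gained region in this span, 231 kb from its 5′ end, and 0 lost regions. The RefSeq promoter table held 11 starts for 8 of the 10 genes, and none of these 11 promoters overlapped a listed region, the closest lying 3.519 kb away at NDST2. EXT1 and EXTL3 are not among these 8 genes.

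Base composition separated 1 region from the other 21. The gained region of NDST2 at the ZSWIM8 start had a GC content of 65.5% and a CpG observed/expected ratio of 0.748, as is usual for CpG island promoters. The 12 gained regions of EXT1 had a GC content of 37.4 to 48.3% (median 43.0%) and a CpG ratio of 0.0836 to 0.343 (median 0.182). All 3623 gained regions had medians of 46.1% and 0.247, and the 2154 gained regions further than 2500 bp from any annotated 5′ end had medians of 41.9% and 0.188. Both EXT1 medians lay nearer to those of gained regions away from 5′ ends than to those of all gained regions. Of these 12, 11 (91.7%) lay away from any 5′ end, compared with 59.5% of all gained regions.

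The 8 lost regions all lay away from annotated 5′ ends, compared with 78.9% of all lost regions. Their median GC content was 52.7% (range 41.5 to 61.1%), against 46.8% for all 3507 lost regions, and their median CpG ratio was 0.210, against 0.202. The 3 HS6ST1 regions were the richest in GC, at 55.1, 57.0 and 61.1%, and the EXT1 upstream region the poorest. Median width was 1575 bp for these 8 regions and 1905 bp for all lost regions, and 2000 bp for the 14 gained regions against 1697 bp for all gained regions.

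**Figure D4:**
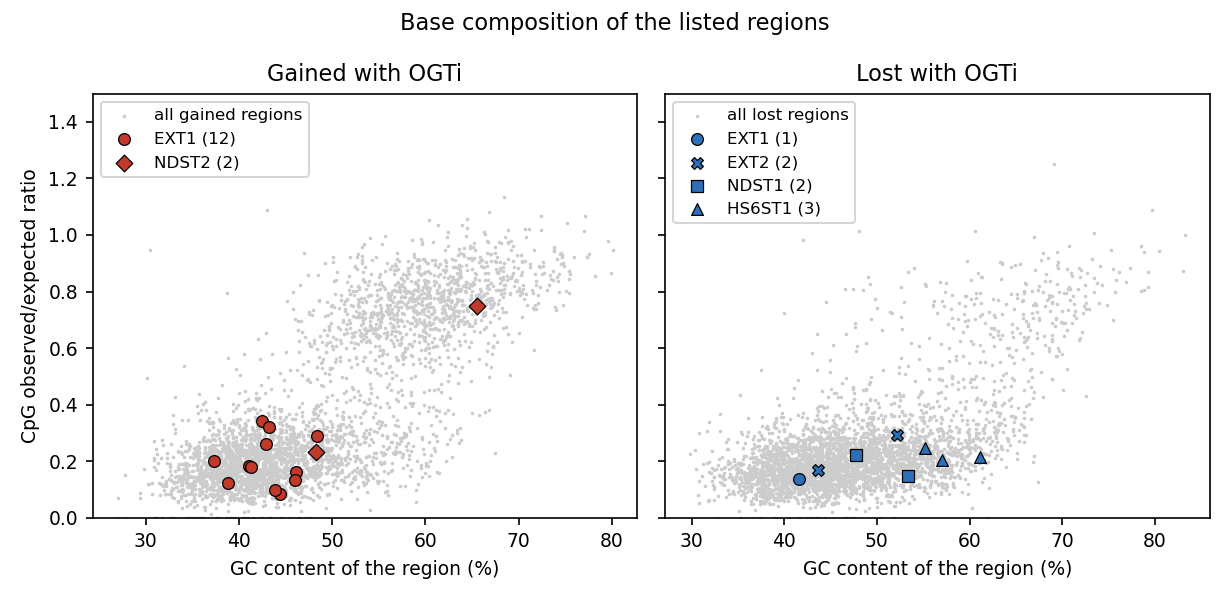
GC content in percent (x axis) and CpG observed/expected ratio (y axis) of every gained (left) and lost (right) region in grey, with the regions attributed to the heparan sulfate genes in colour. The EXT1 regions sit at 37.4 to 48.3% GC with ratios up to 0.343, and 1 gained region of NDST2 stands apart at 65.5% GC and 0.748.

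Motif matches were counted in the 1000 bp around the centre of each region, a window that runs past the edges of regions narrower than 1000 bp, 3 of the 12 in EXT1. Shares are set beside those of all gained regions and, since 11 of the 12 lay away from 5′ ends, of the 2154 gained regions away from any 5′ end. The RUNX consensus TGTGGT was found at 8 of the 12 (66.7%), in 7 of them inside the listed region itself, against 46.9% of all gained regions and 54.2% of those away from 5′ ends. The TEAD consensus was found in 3 of the 12 (25%), against 17.9% and 22.2%. The AP-1 consensus was found in 1 of the 12 (8.33%), against 33.0% and 41.7%. The GC box was found in 1 of the 12, the region nearest to the start, against 38.0% and 15.2%. The ATF4 with C/EBP consensus TGATGCAA was found in 1 of the 12, against 8.17% and 9.70%, and the SRF consensus in 1 of the 12, against 4.39% and 5.52%. The E-box was found in 0 of the 12, against 15.2% and 10.6%. Over the whole widths of the regions, AP-1 was found in 4 of the 12 (33.3%), against 39.6% and 47.6%. RUNX was found over whole widths in 8 of the 12 (66.7%), against 60.0% and 66.2%. For both motifs EXT1 thus lay closer to the other gained regions than in the central window. With 12 regions in 1 gene, some of them abutting, these shares are a description.

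In the 8 lost regions, the TEAD consensus was found in the central 1000 bp of 2 (25%), against 33.0% of all lost regions, 1 region being the second NDST1 region and the other the region upstream of EXT1, with 2 matches. The AP-1 consensus was found in 1, the same NDST1 region, against 31.9%. Over their whole widths, both NDST1 regions and the wider EXT2 region had TEAD and AP-1 matches together, and none of the 3 HS6ST1 regions had either. The RUNX consensus was found in 4 of the 8 (50.0%), against 51.2%, and the GC box in 2 (25%), against 25.5% of all lost regions and 18.8% of those away from 5′ ends. For the other motifs the shares among all lost regions and among those away from 5′ ends are close, as for TEAD at 33.0% and 34.9%. The E-box was found in 1, at HS6ST1, against 11.7%, and the ATF4 with C/EBP and SRF consensus in 0, against 2.17% and 9.67%. No matches of different motifs overlapped in the 22 regions.

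The rest of the pathway was examined by the same rule in 42 further genes of heparan sulfate metabolism. Of these, 8 (19.0%) had gained regions alone, 10 (23.8%) had lost regions alone, 0 had both and 24 (57.1%) had neither. Over all protein-coding genes these shares were 23.4%, 14.4%, 7.23% and 55.0%. The median was 0 regions for the 42 genes and for all protein-coding genes. The counts for these genes and for the shorter lists within them were not tested. Linker assembly showed 1 gene with a gained and 1 with a lost region out of 7, and precursor supply 3 and 2 out of 10. Of the 10 syndecan and glypican core protein genes, 2 had gained and 4 had lost regions. Of the 11 further modification genes, 9 had neither. GLCE, the epimerase that turns glucuronic into iduronic acid, had 1 gained region, chr15:69160579-69161696, which covered its 5′ end and had a GC content of 65.8%. It was the only gene of the 42 with a gained region within 2500 bp of its start, where 6.41% of all protein-coding genes had one.

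SULF2, an endosulfatase that removes 6-O sulfate from finished chains outside the cell, was the only gene of the 42 with a lost region within 2500 bp of its start. Over all protein-coding genes, 1.96% had one. SULF2 had 4 lost and 0 gained regions. The closest, chr20:47785179-47786112, was 934 bp wide, began 504 bp inside the gene and had a GC content of 80.4%. The other 3 were centred 5.59, 23.2 and 88.9 kb upstream, and SULF2 had the nearest protein-coding 5′ end for all 4. HS6ST1 and SULF2, which add and remove the same sulfate group, each had lost regions alone, as had 14.4% of all protein-coding genes. Their relatives differed, with no listed region at HS6ST2 or HS6ST3 and 1 lost region at SULF1. No joint change was tested. GPC1, which encodes the cell surface core protein glypican-1, had 3 abutting lost regions 61.1 to 64.8 kb upstream of its start, with a GC content of 60.6 to 62.2%. GPC2 had 4 gained regions 57.7 to 88.4 kb downstream of its start, each lying 0.038 to 0.789 kb from the 5′ end of another protein-coding gene.

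**Figure D5:**
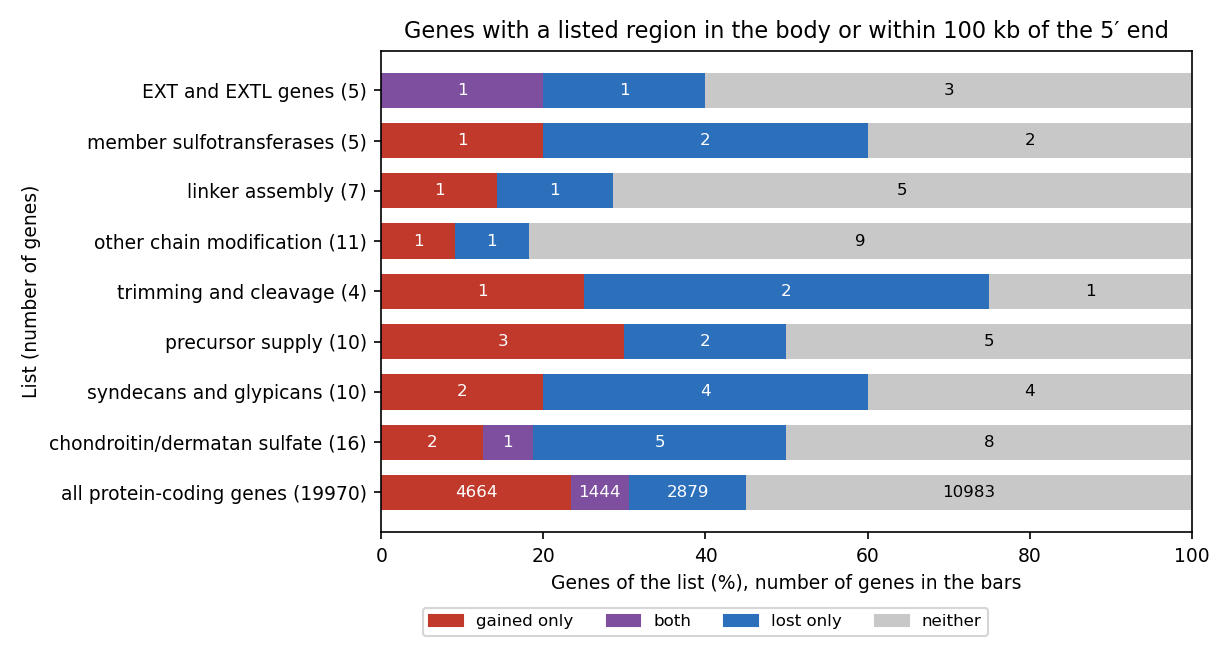
Share of the genes of each list (x axis, percent) with gained regions alone (red), both kinds (purple), lost regions alone (blue) or neither (grey) in the gene body or within 100 kb of the 5′ end, with the number of genes printed in each bar. The 10 genes described here make up the upper 2 bars, and the lowest bar gives all 19970 protein-coding genes, of which 10983 had neither.

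Genes that assemble chondroitin and dermatan sulfate, which use the same linker and precursors, were set beside these. Of 16 such genes, 2 (12.5%) had gained regions alone, 5 (31.25%) had lost regions alone, 1 (6.25%) had both and 8 (50%) had neither. The shares over all protein-coding genes were 23.4%, 14.4%, 7.23% and 55.0%. None of the 16 had a region within 2500 bp of its start. No gene in this list had 3 or more regions of one direction. Among the 10 genes and the 42 further genes, HS6ST1, SULF2, GPC1 and GPC2 did, as did EXT1, which was chosen for its gained regions. The 3 regions of GPC1 abutted, the 3 of HS6ST1 formed 2 blocks, and the 4 of GPC2 each lay nearer to another gene's start. Over all protein-coding genes, 2.58% had at least 3 lost and 0 gained regions, a share that does not apply to EXT1 or GPC2. The lists differ in size, and the difference between them was not tested.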

How the data were processed

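H3K27ac ChIP-seq was performed in 8 LX-2 libraries (4 OGTi, 4 DMSO), and the series holds 8 further input or chromatin libraries that are not used here. Per the study's methods, the authors mapped reads to hg38 with Chromap, found peaks per library against input with MACS2 (2.1.1.20160309 in the submitters' processing notes), removed duplicates and blacklisted regions, and compared arms with MAnorm2 in bins. The deposited lists hold 3 columns of positions with no score or count, and their names carry an adjusted p of 0.15, while the methods text states a stricter one.

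Starts were converted to 1-based coordinates. Genes came from GENCODE release 44 on hg38, and 11 regions on the mitochondrial or unplaced sequences could match no gene. Overlaps, base composition and motifs were computed in Python 3.11.15 with functions tested on simulated intervals. All 10 genes are named, pathway genes with 3 or more regions of one direction or a region within 2500 bp of the 5′ end, and genes most like EXT1 as defined in the text. HS6ST2, HS6ST3 and SULF1 are named as relatives of HS6ST1 and SULF2. The genes, lists and rules were chosen with earlier results of these data known.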

Additional observations from a re-analysis of the deposited data

How the results depend on the processing

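No paired analysis was possible because each deposited list merges all libraries into positions, and no replicate could be left out for the same reason. The 6 counts of regions or genes were recomputed in 7 ways, and 33 of these 42 values stayed within 1.5 times the count given. With the gene body alone, or with the gene body and 2500 bp around the 5′ end, lost regions at the 10 genes fell to 2, genes with a gained region to 1 (EXT1) and genes with a lost region to 1 (EXT2). Lost regions at EXT1 fell to 0 in both cases and also within 50 kb. Gained regions at EXT1 stayed between 10 and 12 in all 7. Counting from the 5′ ends of all annotated transcripts gave 15 gained and 12 lost regions, the additions lying at EXTL1, EXT2 and NDST1. Counting all annotated genes gave backgrounds of 23.7% for gained and 18.1% for lost regions. Medians of width, GC content and CpG ratio moved by less than 1 SD over the regions. Without signal values, a region just past the authors' threshold cannot be told apart from a strong change.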
